A study of Mus musculus with 8 samples.

Results

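The cytosolic ribosomal protein genes were taken from a spleen RNA-seq count table as all protein-coding genes whose mouse symbol begins with Rpl or Rps and a number, together with Rpsa, Rplp0, Rplp1 and Rplp2. The Rps6k kinases, which share the prefix but phosphorylate ribosomal protein S6, were left out. The rule found 92 of the 52636 genes in the table, of which 21896 are protein-coding. They comprise 77 core genes, each encoding a subunit of the common cytosolic ribosome, with 31 in the small and 46 in the large subunit. A further 8 are paralogues or tissue forms, 6 carry a pseudogene symbol although they are typed as protein-coding, and 1, Rps19bp1, encodes a protein that binds Rps19 and is no subunit. A filter on low counts left 86 members for testing, and all 77 core genes passed it.

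The libraries were made with an mRNA-seq kit from whole-spleen RNA of 6-week-old C57BL/6 mice, either wild type or carrying the Lmna R527C mutation in the gene for lamin A and C. The 4 groups, each of 2 samples, were unirradiated wild type, unirradiated mutant, wild type at day 7 after 4 Gy, and mutant at day 7 after 4 Gy. The unirradiated samples are labelled day 0, so dose and day change together, and no label says whether the mutation is in 1 or both alleles. Nothing in the labels says that the 2 samples of a group are separate mice, so each p-value below measures the spread between these samples, which may be technical.

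A ribosome joins a small subunit, which reads the messenger RNA, to a large subunit, which forms the peptide bond, and each subunit needs about equal amounts of its proteins. Most mammalian ribosomal protein messages begin with a cytosine followed by a run of pyrimidines, the 5′ terminal oligopyrimidine (TOP) tract, through which mTOR signalling sets how strongly they are translated. Excess Rpl5 and Rpl11, bound to 5S ribosomal RNA, can inhibit Mdm2 and so raise p53. Mutations in many of these genes cause Diamond-Blackfan anaemia, a failure of red cell production.

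The annotated start regions of a few members are printed here, among them genes that later stand apart in their counts. Each window holds 30 bases 5′ to 3′ on the gene's own strand, from the RefSeq promoter table on GRCm38.p6, and capitals mark a run of at least 6 C or T bases that begins with C within 25 bases of the annotated start.
Rpl38: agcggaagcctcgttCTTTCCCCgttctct
Rps27: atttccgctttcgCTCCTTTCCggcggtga
Rps6: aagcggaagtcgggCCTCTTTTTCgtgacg
Rpl11: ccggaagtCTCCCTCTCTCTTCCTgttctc
Rpl5: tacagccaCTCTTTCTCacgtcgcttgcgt
Rps27l: cgcctccaCTCCTCTCCactcctccccgcc
Rpl22l1: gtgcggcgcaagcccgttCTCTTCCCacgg
Rps3: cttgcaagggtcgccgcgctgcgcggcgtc
The windows lie at chr11:114668565-114668594 on the plus strand for Rpl38, chr3:90213634-90213663 on the minus strand for Rps27 and chr4:86857353-86857382 on the minus strand for Rps6. They lie at chr4:136053358-136053387 on the minus strand for Rpl11, chr5:107900500-107900529 on the plus strand for Rpl5 and chr9:66946056-66946085 on the plus strand for Rps27l. They lie at chr3:28805493-28805522 on the plus strand for Rpl22l1 and chr7:99483695-99483724 on the minus strand for Rps3. The Rps3 window holds no such run. Counted from the annotated start as 0, the runs begin at 0 for Rpl38, −2 for Rps27, −1 for Rps6 and 3 for Rpl22l1. That of Rpl11 begins at 14, that of Rpl5 at −20 (9 bases) and that of Rps27l at −22 (9 bases). The runs of Rpl5 and Rps27l thus end before the annotated start. Another annotated Rps27l start, with its window at chr9:66946398-66946427, has no run. Whether a marked run is a TOP tract was not tested.

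Promoter windows from 250 bases before to 50 bases after the start were found for 66 of the 92 members. A C or T run as defined above was present in 47 of the 66 genes (71.2%), against 41.4% of 11055 other protein-coding genes tested and 40.3% of all 27025 genes in the table. Of 4 hexamers searched within 25 bases of the start on the gene strand, CTTTCC was present in 18.2% of members and 2.81% of the other genes tested, CTCTTT in 13.6% and 1.99%, CCTTTC in 13.6% and 2.50%, and CTTTTC in 7.58% and 1.84%. At least 1 of the 4, which can overlap each other and lie inside the longer runs, was present in 23 members (34.8%), against 7.19% of the other genes tested and 7.87% of all genes. The ETS family core CCGGAAG, searched over the whole window on both strands, was present in 39.4% of members, 18.3% of the other genes tested and 9.93% of all genes. The YY1 core AAGATGGC was present in 9.09%, 4.81% and 3.19%, and the TATA box TATAAA in 10.6%, 9.27% and 15.7%, respectively. These matches describe letters in the annotated windows and were not set against the counts.

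Library totals ran from 12100784 to 19455470 counts. The 2 irradiated mutant libraries differed most from each other, with a Pearson correlation of log2 CPM (counts scaled to library size) of 0.892 across genes, against 0.959 to 0.992 in the other groups. Xist counted at most 6 reads in each unirradiated library and 11836 to 18590 in each irradiated library, while Y-linked transcripts summed to 4318 to 6856 in the unirradiated libraries and to 0 in the irradiated ones. By these transcripts all unirradiated libraries read as male and all irradiated libraries as female. Irradiation, day and sex therefore cannot be told apart in any comparison by day below. Globin transcripts took 1.30% to 10.3% of counts. The summed level of 10 B cell markers was 2509 to 4823 CPM at day 0 and 89.2 to 1555 CPM at day 7, and that of 12 granulocyte markers was 1490 to 1735 CPM in unirradiated wild type, 5916 to 11742 CPM in unirradiated mutant and 93.5 to 225 CPM at day 7. In whole spleen, fewer cells of a type and less RNA per cell cannot be told apart, and the part of cell composition in the results below was not tested.

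Ribosomal protein genes took 6.08% to 10.4% of all counts in a library. Before irradiation, the share of the 92 members was 8.72% and 10.4% in the wild type libraries and 7.60% and 8.30% in the mutant libraries. At day 7 it was 9.01% and 8.22% in wild type and 6.08% and 9.02% in mutant. Both unirradiated mutant libraries lay below both unirradiated wild type libraries, but the gap between the 2 wild type libraries (1.63 percentage points) was as wide as the difference between the group means (1.59 points). The irradiated mutant library at 6.08% was the one with globin at 10.3% of counts, and the one at 9.02% had globin at 1.30%. Small-subunit genes supplied 44.9% to 46.7% of core counts in every library. Pseudogene copies named after members added 0.22% to 0.40% of all counts, or 3.19% to 3.69% of the counts of members and copies together.

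**Figure D1:**
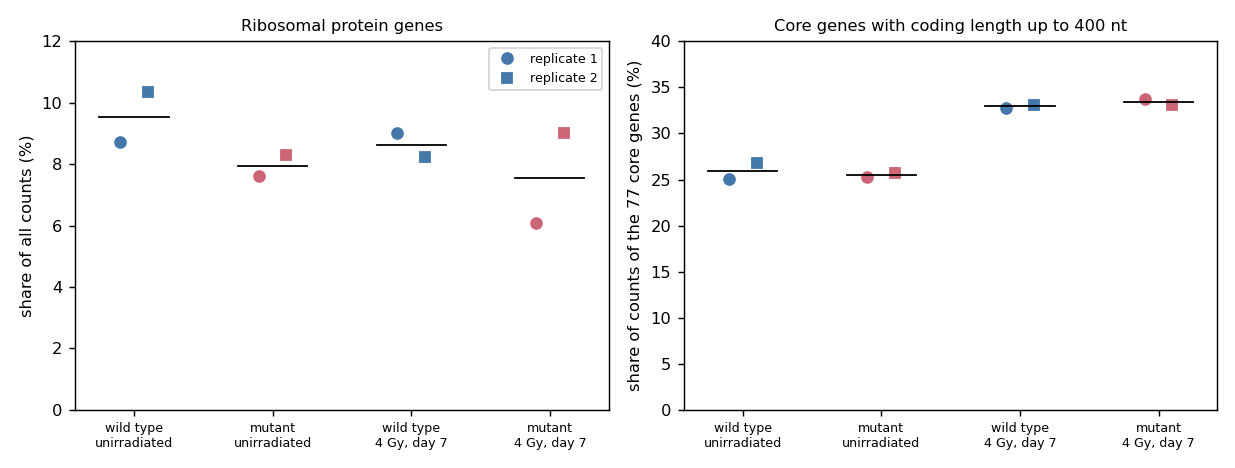
Each point is 1 library and each black line a group mean of 2 libraries, coloured by genotype. The left panel gives the share of all counts in the 92 ribosomal protein genes (%), which overlaps between day 0 and day 7, and the right panel gives the share of core counts that came from genes with a coding length up to 400 nucleotides (%), which ran from 25.1% to 26.8% at day 0 and from 32.8% to 33.8% at day 7.

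Levels within the family spanned a wide range even per exon length. Rplp1, a protein of the acidic stalk that recruits elongation factors, was the highest per exon length, at 4404 CPM per kilobase of exon in unirradiated wild type, followed there by Rps3a1, a small-subunit protein, at 2828 CPM per kilobase. Rpl24 and Rpl13a, both core large-subunit proteins, were the lowest of the core genes, at 10.7 and 31.8 CPM per kilobase. In the annotation 47.0% of Rpl24 exon bases also belonged to Gm28037, and 35.4% of Rpl13a exon bases to Gm45713, Mir5121 or Snord33. Rpl23a shared more, 62.3% with Snord42b or Tlcd1, and stood at 506 CPM per kilobase in unirradiated wild type. The part of shared exons in these levels was not tested. No source used here states whether reads over shared exons were counted, so levels of genes with such overlaps are uncertain. The low members are accounted for as follows: Rpl10l, Rpl36-ps4 and Rpl9-ps1 had 0 counts in every library, Rpl3l had 0 to 6, Rpl36a-ps1 had 3 to 7 and Rpl10-ps3 had 3 to 18. These 6 failed the filter. Rpl39l, a tissue form of Rpl39, passed it on 31 counts in irradiated mutant replicate 2 and 11 in unirradiated wild type replicate 2. Each of the others had 0 to 6 counts. Its fitted fold changes, which rest on those few counts, are not given.

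The comparison of mutant with wild type spleen before irradiation asked whether the mutation alone went with a different ribosomal protein programme. Nearly the whole family was a little lower in the mutant, and no single member passed the test. Of 86 members 83 had a log2 fold change below 0, with a median of −0.34 (0.791-fold), beside a median of −0.02 and 53.1% below 0 over all 17327 genes tested. The median stayed below 0 under every normalization, tool and left-out library tried, but its size depended on single libraries. It was −0.11 without unirradiated wild type replicate 2, the library with a share of 10.4%, and −0.50 without replicate 1 of that group. With edgeR's quasi-likelihood test, 0 members were called at an adjusted p under 0.05 (background 0.0%), 0 members had an unadjusted p under 0.05 (background 2.24%), and DESeq2 and limma-voom also called 0. In 53 members both mutant libraries lay below both wild type libraries (background 25.0%), and in 1, Rpl36al, both lay above (background 20.8%). Members share these libraries and shifted largely together, so the counts of members below 0 and without overlap are not independent observations. The small-subunit median was −0.36 and the large-subunit median −0.33. All 31 small-subunit and 45 of 46 large-subunit core genes were below 0. In the same comparison 12 of 12 granulocyte markers (median 2.50) and 8 of 8 plasma cell markers (median 1.15) had values above 0, and 10 of 10 B cell markers (median −0.76) and 8 of 8 adipose markers tested (median −1.36) had values below 0, with 0 called by edgeR's quasi-likelihood test; their part in the family's values was not tested.

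Apart from Rpl39l, the lowest value belonged to Rps27a, which encodes ubiquitin fused to a small-subunit protein. Rps27a stood at 714 and 978 CPM in unirradiated wild type and at 435 and 532 CPM in unirradiated mutant, without overlap (log2 fold change −0.81, SE 0.37, adjusted p = 1.0 with edgeR's quasi-likelihood test). It was also the core gene farthest below the family: its log2 level relative to the median core gene was −0.26 and −0.25 in wild type and −0.80 and −0.70 in mutant, while 73 of the 77 core genes differed between genotypes by less than 0.25 on this scale. Rpl24 and Rpl21, both large-subunit proteins, followed with log2 fold changes of −0.61 (SE 0.34) and −0.57 (SE 0.32). At the other end stood Rpl36al, a paralogue of Rpl36a, at 0.32 (SE 0.51) on 42 to 66 counts per library, Rpl15, a large-subunit protein, at 0.12 (SE 0.34), and Rps27l, a paralogue of Rps27, at 0.12 (SE 0.41). The members reported in every comparison lay between these values: Rpl5 −0.28, Rpl11 −0.31, Rps19 −0.35, Rps6 −0.33, Rpl22 −0.27, Rpl22l1 −0.29, Rps27 −0.55, Rpsa −0.29 and Rplp0 −0.21.

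At day 7 after 4 Gy the mutant was again slightly below the wild type across most of the family. The log2 fold change was below 0 in 81 of 86 members, with a median of −0.19 (0.875-fold), beside 0.02 over all genes tested. edgeR's quasi-likelihood test called 0 members (background 0.0%), as did DESeq2 and limma-voom. 1 member, Rpl39l, had an unadjusted p under 0.05 (background 4.02%), on its 31 counts in 1 library. Both mutant libraries lay below both wild type libraries in 30 members (background 7.46%) and above them in 1, Rpl39l (background 10.4%). As before irradiation, members share libraries and shifted largely together, so these counts are not independent observations. The lowest log2 fold changes were those of Rps13, a small-subunit protein, at −0.50 (SE 0.38), Rpl9, a large-subunit protein, at −0.49 (SE 0.35), and Rplp2, a stalk protein, at −0.49 (SE 0.40). Rplp2 stood at 1769 and 1448 CPM in wild type and at 1207 and 1083 CPM in mutant, without overlap. Rps27l (0.19, SE 0.41) and Rpl36al (0.30, SE 0.53) were the highest apart from Rpl39l.

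Markers of other cell types also differed between the irradiated genotypes. All 12 splenic macrophage markers had values above 0 in the mutant (median 1.13, 9 at an unadjusted p under 0.05), and their summed level was 1491 to 2104 CPM in irradiated wild type and 3395 to 4282 CPM in irradiated mutant, without overlap. All 8 adipose markers tested had values above 0 (median 2.95, 2 at an unadjusted p under 0.05), with sums of 27.3 to 128 CPM and 94.5 to 1026 CPM, which overlap. All 8 hepatocyte markers had values above 0 (median 1.5), with sums of 102 to 119 CPM and 86.5 to 499.5 CPM, which overlap. In contrast, 10 of 10 B cell markers had values below 0 (median −0.90). Their sums were 779 to 1555 CPM in irradiated wild type and 89.2 to 1217 CPM in irradiated mutant, which also overlap. edgeR's quasi-likelihood test called none of these markers, and their part in the family's values was not tested.

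Both genotype comparisons thus gave small negative medians, and their sizes lay close to the spread between replicates. The standard deviation of the median core log2 CPM between replicates, pooled over groups, was 0.197, against group differences of −0.30 before and −0.21 after irradiation. The difference between the genotype comparisons was tested as the interaction of genotype and irradiation. It called 0 members with edgeR's quasi-likelihood test (background 0.0%), with 1 member, Rpl39l, at an unadjusted p under 0.05 (background 1.6%). DESeq2 and limma-voom also called 0. The median interaction was 0.14 on the log2 scale, beside 0.05 over all genes. Rps27a had the highest interaction term among members other than Rpl39l (0.57, SE 0.52) and Rpl9 the lowest (−0.32, SE 0.50). The 4 X-linked members gave genotype log2 fold changes of −0.37 (Rps4x), −0.35 (Rpl36a), −0.24 (Rpl39) and −0.14 (Rpl10) before irradiation, and of −0.10, −0.11, 0.04 and −0.14 after it.

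**Figure D2:**
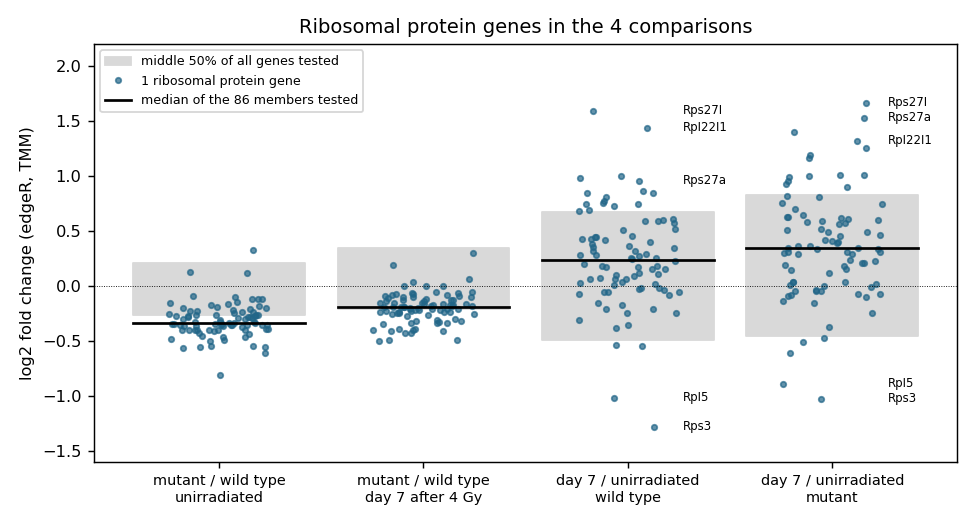
Each point is the log2 fold change (vertical axis) of 1 of 85 ribosomal protein genes, without Rpl39l, in the 4 comparisons on the horizontal axis, spread sideways at random within each. The black line is the median of the 86 members tested and the grey band the middle 50% of all genes tested; all but 3 of these members before and 4 after irradiation lie below 0 in the genotype comparisons, and they spread from −1.29 to 1.59 in the irradiation comparison of wild type and from −1.03 to 1.66 in that of mutant.

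Irradiated and unirradiated spleens were compared within each genotype to ask how the family stood 7 days after exposure. The members spread apart, though less widely than all genes tested, with short genes higher and several long genes lower. No member passed edgeR's quasi-likelihood test in either genotype alone. In wild type the lower and upper quartiles of the members' log2 fold changes were −0.02 and 0.52, beside −0.49 and 0.68 over all genes. In mutant these quartiles were 0.02 and 0.63, beside −0.45 and 0.82 over all genes. In wild type 63 of 86 members had a log2 fold change above 0, with a median of 0.23 beside 0.09 over all genes, and in mutant 66 of 86, with a median of 0.35 beside 0.15; with library totals alone these medians turned to −0.12 and −0.03, beside −0.25 over all genes in both. edgeR's quasi-likelihood test called 0 members in wild type (background 0.0577%, 0.0115% higher and 0.0462% lower), the smallest adjusted p being 0.169, and 0 in mutant (background 0.6%), the smallest being 0.104. Unadjusted p-values under 0.05 were found for 10 members in wild type (background 17.3%) and 16 in mutant (background 22.1%). Limma-voom called 0 in both (background 0.0289% and 0.606%), and DESeq2 called 4 in wild type (background 6.56%) and 12 in mutant (background 11.3%). The libraries did not overlap, with day 7 higher, in 34 members in wild type (background 29.7%) and 52 in mutant (background 26.9%), and with day 7 lower in 6 (background 27.8%) and 9 (background 25.7%). Leaving out Rpl39l, the highest log2 fold changes in wild type were those of Rps27l (1.59, SE 0.42), Rpl22l1 (1.44, SE 0.38) and Rps28 (1.0, SE 0.39), and the lowest those of Rps3 (−1.29, SE 0.36), Rpl5 (−1.02, SE 0.34) and Rpl19 (−0.55, SE 0.35). In mutant, again without Rpl39l, the highest were those of Rps27l (1.66, SE 0.42), Rps27a (1.52, SE 0.37) and Rps29 (1.40, SE 0.37), and the lowest those of Rps3 (−1.03, SE 0.36), Rpl5 (−0.89, SE 0.34) and Rpl9-ps6 (−0.61, SE 0.32). Among the other 85 members, Rps27l was thus highest and Rps3 and Rpl5 lowest in both genotypes, which share no libraries.

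Averaged over both genotypes, which sets 4 irradiated against 4 unirradiated libraries, 7 of 86 members were called higher and 2 lower. Together these calls were a share close to that of all genes called, so their number does not set the family apart. This average was added after the results above had been seen. The 9 members are Rps27l, Rpl22l1, Rps27a, Rps29, Rpl38, Rpl24 and Rpl21, which were higher at day 7, and Rps3 and Rpl5, which were lower. With edgeR's quasi-likelihood test 7 of 86 members were called higher (background 6.42%) and 2 lower (background 5.77%), or 9 in all (background 12.2%); DESeq2 called 22 (background 27.1%) and limma-voom 11 (background 12.1%); with library totals alone 2 were higher and 3 lower. An unadjusted p under 0.05 was found for 23 members (background 34.9%), a smaller share than over all genes. The median over the 86 members was 0.27, beside 0.11 over all genes, and turned to −0.09 with library totals alone, beside −0.25 over all genes. In 22 members all 4 irradiated libraries lay above all 4 unirradiated ones (background 12.8%), and in 3, Rps3, Rpl5 and Rpl9-ps6, below (background 14.2%). In the same comparison 7 of 8 hepatocyte markers were called higher, with summed levels of 7.63 to 9.59 CPM at day 0 and 86.5 to 499.5 CPM at day 7 and with Alb and Fgb at 0 in every unirradiated library. Of the granulocyte markers 11 of 12 were called lower, and of 12 each of the stromal and endothelial and the splenic macrophage markers 3 and 2 were called higher; their part in the family's values was not tested.

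Rps3, a small-subunit protein at the entry of the messenger RNA channel, had the larger of the 2 falls. It stood at 1545 and 2083 CPM in unirradiated wild type, 1373 and 1497 CPM in unirradiated mutant, 847 and 642 CPM in irradiated wild type, and 743 and 667 CPM in irradiated mutant. All 4 irradiated libraries were below the lowest unirradiated one, and the averaged log2 fold change was −1.16 (SE 0.25, adjusted p = 0.0310 with edgeR's quasi-likelihood test). The gene (ENSMUSG00000030744.13) lies at chr7:99477896-99483738 on the minus strand of GRCm38, and 3.23% of its exon bases overlap Snord15b. Against Rps2, another small-subunit gene of like length, Rps3 counts were 114% to 148% in the unirradiated libraries and 50.6% to 69.1% in the irradiated ones. Relative to the median core gene its log2 level ran from 0.80 to 0.86 at day 0 and from −0.70 to −0.40 at day 7.

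Rpl5 fell, and its partner in the 5S ribonucleoprotein particle, Rpl11, did not pass the test; the difference in fold change between members was not tested here or for the paralogues below. Rpl5 stood at 1145 and 1448 CPM in unirradiated wild type, 1085 and 1046 CPM in unirradiated mutant, 723 and 555 CPM in irradiated wild type, and 574 and 575 CPM in irradiated mutant. The day 7 libraries were all lower (averaged log2 fold change −0.96, SE 0.24, adjusted p = 0.0429 with edgeR's quasi-likelihood test). Rpl11 stood at 856, 1119, 768 and 821 CPM in the unirradiated wild type and mutant libraries and at 1265, 1044, 973 and 1127 CPM in the irradiated ones, which overlap (0.31, SE 0.24, adjusted p = 0.379). Counts of Rpl5 as a share of Rpl11 were 129% to 134% in unirradiated wild type, 127% to 141% in unirradiated mutant, 53.2% to 57.1% in irradiated wild type and 51.0% to 59.0% in irradiated mutant. The gene for Rpl5 (ENSMUSG00000058558.12) lies at chr5:107900502-107909005 on the plus strand, and 26.7% of its exon bases also belong to Fam69a or Snord21.

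Of the members that rose, the paralogues Rps27l and Rpl22l1 had the highest fold changes. Rps27l, a known p53 target, lies at chr9:66946086-66949516 on the plus strand (ENSMUSG00000036781.13). It stood at 57.2 and 67.4 CPM in unirradiated wild type, 66.5 and 68.5 CPM in unirradiated mutant, 247 and 128 CPM in irradiated wild type, and 271 and 156 CPM in irradiated mutant. The averaged log2 fold change was 1.63 (SE 0.30, adjusted p = 0.0210 with edgeR's quasi-likelihood test), and all irradiated libraries were above all unirradiated ones. The irradiated replicates differed widely: Rps27l counts at day 7 were 22.8% and 11.1% of Rps27 counts in the wild type libraries and 33.4% and 13.5% in the mutant libraries, against 5.80% to 10.8% at day 0. The 2 libraries with the higher ratio also had the higher summed levels of 12 proliferation markers (10619.6 and 12221 CPM, against 5072 and 2116 CPM). Their summed erythroid markers were higher too (25230.4 and 42762 CPM, against 17169.6 and 4025 CPM). Globin transcripts went the other way in irradiated wild type, at 4.28% of counts in the library with the higher ratio and 6.17% in the other. In irradiated mutant they were 10.3% and 1.30%. The part of these transcripts in the ratio was not tested.

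Rpl22l1, which can take the place of Rpl22 in the large subunit, lies at chr3:28805436-28807424 on the plus strand (ENSMUSG00000039221.10). It stood at 60.8 and 102 CPM in unirradiated wild type, 61.7 and 71.0 CPM in unirradiated mutant, 272 and 169 CPM in irradiated wild type, and 176 and 155 CPM in irradiated mutant. The averaged log2 fold change was 1.38 (SE 0.27, adjusted p = 0.0242 with edgeR's quasi-likelihood test), while Rpl22 itself did not pass (0.50, SE 0.24, adjusted p = 0.178). Rpl22l1 counts were 15.3% to 19.3% of Rpl22 counts in the unirradiated libraries, and at day 7 they were 37.7% and 32.6% in the wild type libraries and 30.6% and 27.6% in the mutant ones, so the groups by day did not overlap. The other paralogues that passed the filter, apart from Rpl39l, gave averaged log2 fold changes of −0.09 (Rpl7l1, SE 0.22), −0.07 (Rpl36al, SE 0.37) and −0.02 (Rps27rt, SE 0.44), and the signs of Rpl7l1 and Rpl36al turned under some alternatives.

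**Figure D3:**
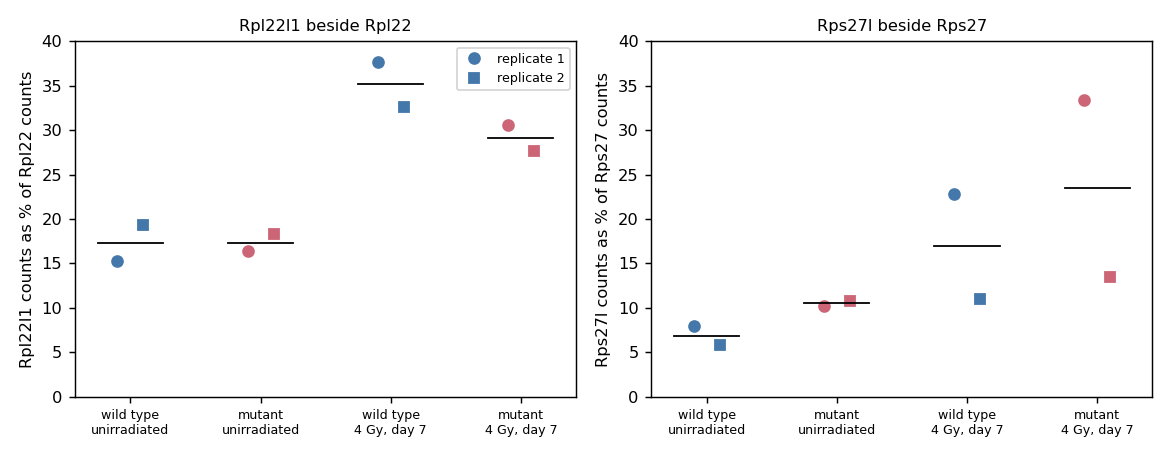
Counts of a paralogue as a percentage of the counts of its partner (vertical axis) in each library (points; line, mean of 2) of the 4 groups. Rpl22l1 ran from 15.3% to 19.3% of Rpl22 at day 0 and from 27.6% to 37.7% at day 7, and Rps27l from 5.80% to 10.8% of Rps27 at day 0 and from 11.1% to 33.4% at day 7.

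The remaining 5 members that rose are core genes with coding lengths from 168 to 480 nucleotides. Rps27a, the ubiquitin fusion gene, stood at 714 and 978 CPM in unirradiated wild type, 435 and 532 CPM in unirradiated mutant, 1827 and 1442 CPM in irradiated wild type, and 1546 and 1232 CPM in irradiated mutant (averaged log2 fold change 1.24, SE 0.26, adjusted p = 0.0288 with edgeR's quasi-likelihood test). Rps29, a short zinc-binding protein of the small subunit, stood at 381, 606, 294 and 376 CPM before and at 957, 812, 881 and 883 CPM after irradiation (1.12, SE 0.26, adjusted p = 0.0347). For both genes every irradiated library exceeded every unirradiated one. Rpl38, which mouse genetics has tied to the translation of Hox messages, stood at 160.3, 217, 118 and 156 CPM before and at 399, 347, 272 and 356 CPM after irradiation (1.09, SE 0.24, adjusted p = 0.0310). Rpl21 stood at 269, 373, 205 and 229 CPM before and at 546, 536, 504 and 467 CPM after (0.96, SE 0.23, adjusted p = 0.0367), and 15 pseudogenes in the annotation are named after it. Rpl24 stood at 12.9, 9.23, 6.41 and 8.10 CPM before and at 21.1, 19.2, 20.3 and 14.4 CPM after (1.06, SE 0.24, adjusted p = 0.0332), with the exon overlap given above. Neither group of libraries overlapped the other for Rpl38, Rpl21 or Rpl24.

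The 9 calls kept their direction under all 16 alternatives, but the calls themselves rested on having all libraries. Leaving out any 1 of the 4 unirradiated libraries, or irradiated wild type replicate 1, left 0 members called, with 60 to 97 and 696 genes called of all tested. Without irradiated wild type replicate 2, 2 members were called (background 3.54%), and without irradiated mutant replicate 1 or 2 the counts were 18 (background 22.2%) and 20 (background 38.8%).

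**Figure D4:**
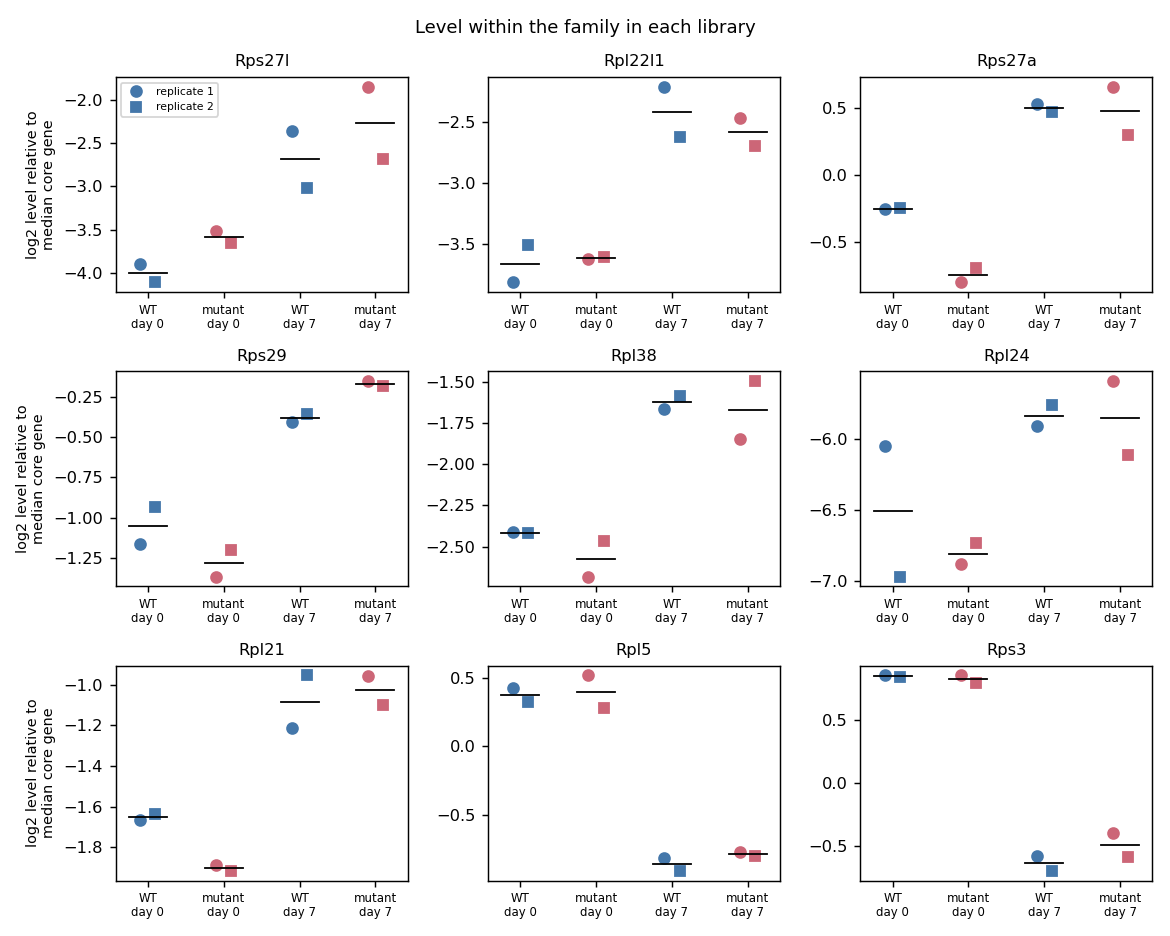
Log2 level relative to the median core gene (vertical axis) in each of the 8 libraries (points; line, mean of 2) for the 9 members called in the averaged comparison. Rps3 and Rpl5 lie above the median core gene at day 0 and below it at day 7, and the other 7 lie higher at day 7 than at day 0, with no overlap of the 4 and 4 libraries except for Rpl24.

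Members were then grouped by role. In the acidic stalk, the averaged log2 fold changes were −0.02 (SE 0.27) for Rplp0, 0.61 (SE 0.27) for Rplp1 and 0.60 (SE 0.28) for Rplp2, with none passing edgeR's quasi-likelihood test; DESeq2 called Rplp1 higher. Of 19 Diamond-Blackfan anaemia genes, 18 had values above 0 (median 0.33); 1 rose, Rps29, and 1 fell, Rpl5, by edgeR's test (background 6.42% higher and 5.77% lower). Rps19, the gene most often mutated in that anaemia, stood at 667, 904, 546 and 687 CPM before and 1047, 866, 914 and 843 CPM after irradiation, which overlap (0.40, SE 0.25). Rps6, the substrate of the S6 kinases, gave 0.39 (SE 0.24), Rps27 gave 0.43 (SE 0.27) and Rpsa, also known as the laminin receptor, gave −0.17 (SE 0.26). The X-linked members gave 0.84 (Rpl36a, SE 0.25), 0.42 (Rpl39, SE 0.24), −0.17 (Rps4x, SE 0.25) and −0.25 (Rpl10, SE 0.23), so these 4 genes differed in sign. None of the 4 was called by edgeR's quasi-likelihood test or limma-voom, while Rpl36a was among the members called by DESeq2 and, with edgeR, when either irradiated mutant library was left out. Small-subunit and large-subunit core genes had medians of 0.27 and 0.32, with 26 of 31 and 34 of 46 above 0; with library totals alone the median of the whole family is below 0, as given above.

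The order of members within the family was described on a scale that no library scaling can shift, the log2 level relative to the median core gene. On it, and without Rpl39l, 28 of 85 members were higher in all 4 irradiated libraries than in all 4 unirradiated ones (background over all genes on the same scale 6.72%) and 17 were lower (background 16.9%). These backgrounds are not like for like. The scale is set by the members, so it takes their shared variation between libraries out of them and puts it into other genes. On plain CPM, 22 of 86 members were higher (background 12.8%) and 3 lower (background 14.2%). On the relative scale 58 of the 77 core genes shifted by less than 0.5. Rps3 (−1.40) and Rpl5 (−1.21) moved down the most, followed by Rpl9-ps6 (−0.85) and the large-subunit genes Rpl3 (−0.71), Rpl19 (−0.71) and Rpl7a (−0.69). Rps27l (1.32), Rpl22l1 (1.13), Rps27a (0.99), Rps29 (0.89) and Rpl38 (0.85) moved up the most. Between genotypes, 73 of 77 core genes differed by less than 0.25 before irradiation and 73 after it. The 9 called members are among those chosen on the same libraries, so these values are a description.

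The shift by day ran with the length of the coding sequence. Over the 77 core genes, the averaged log2 fold change and coding length had a Spearman correlation of −0.73 and, with length on a log2 scale, a Pearson correlation of −0.66; these points share the same 8 libraries and genes are not independent replicates. The Spearman value was −0.69 in wild type and −0.73 in mutant, which have no libraries in common. Without Rps3 and Rpl5 it was −0.71 (75 genes), over the 50 core genes with under 5% of exon bases shared with other genes it was −0.75, and over 17 settings it ran from −0.76 to −0.69. The genotype comparisons gave 0.30 before irradiation, where the value ran from −0.14 to 0.46 over settings, and −0.08 after it.

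Split by length, the 9 core genes up to 300 nucleotides had a median averaged log2 fold change of 0.84, and all 9 were above 0. The median was 0.56 for the 16 genes over 300 and up to 400 nucleotides, 0.38 for the 22 up to 500, 0.12 for the 16 up to 700, and −0.10 for the 14 longer ones, of which 4 were above 0. Other protein-coding genes in the same length classes gave medians of 0.70 (301 genes), 0.56 (454), 0.45 (505), 0.23 (1313) and 0.06 (11451). The order by length was therefore shared by genes outside the family. Over all 14191 protein-coding genes tested, members included, the rank correlation was −0.12. In counts, core genes up to 400 nucleotides supplied 25.1%, 26.8%, 25.3% and 25.7% of core counts in the unirradiated libraries and 32.8%, 33.1%, 33.8% and 33.1% in the irradiated ones. Core genes over 700 nucleotides supplied 29.96% to 32.4% before and 23.6% to 26.6% after irradiation, so neither share overlapped between days. RNA integrity and library fragment size, which could bear on short messages, are not stated in any source used here; 8 of 8 transcripts of a list of nuclear and non-coding RNAs were above 0 in the same comparison (median 0.91), and the part of RNA quality was not tested.

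**Figure D5:**
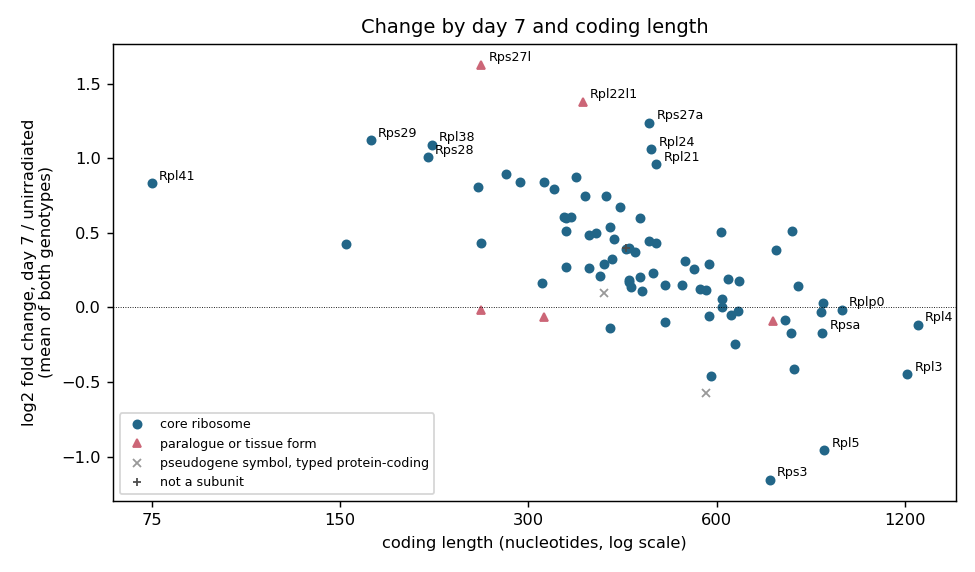
Averaged log2 fold change of day 7 over day 0 (vertical axis) against coding length in nucleotides (horizontal axis, log scale) for 85 ribosomal protein genes, with symbols by class; Rpl39l is left out. Core genes up to 300 nucleotides all lie above 0, and 4 of the 14 core genes over 700 nucleotides do, with Rps3 and Rpl5 lowest.

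Genes that work with the family were counted by the same test. Of 42 ribosome biogenesis genes, which process ribosomal RNA and assemble subunits, 0 rose and 4 fell in the averaged comparison with edgeR's quasi-likelihood test (median −0.22, 12 above 0; background 6.42% higher and 5.77% lower); DESeq2 called 10 lower (background 12.9%) and limma-voom 5 lower (background 6.34%). The 4 were Tsr1 (−1.33, SE 0.25, adjusted p = 0.0222), Rrp9 (−1.14, SE 0.22, adjusted p = 0.0241), Bop1 (−1.09, SE 0.22, adjusted p = 0.0249) and Pes1 (−0.83, SE 0.21, adjusted p = 0.0427), and Bop1 and Pes1 are partners in a complex for large-subunit maturation. Of 22 translation factors and other genes with TOP messages, 0 were called and 4 had an unadjusted p under 0.05, with a median of 0.08 (DESeq2 called 2 higher and 3 lower, beside 14.1% and 12.9% of all genes, and limma-voom 1 lower); elongation factor Eef2 gave −0.89 (SE 0.25, adjusted p = 0.0550) and Btf3 gave 0.87 (SE 0.26, adjusted p = 0.0640). Of 77 mitochondrial ribosomal protein genes tested, 4 rose and 3 fell (median 0.23), among them Mrps21 at 1.04 (SE 0.20, adjusted p = 0.0239) and Mrps26 at −1.03 (SE 0.19, adjusted p = 0.0226). Of 17 regulators, including Mtor, Larp1 and Mdm2, 0 were called and 4 had an unadjusted p under 0.05 (DESeq2 called 2 lower, limma-voom 0); Mdm2 gave 0.53 (SE 0.20, adjusted p = 0.108). In the comparison of genotypes after irradiation, 39 of 42 biogenesis genes were below 0 (median −0.25) with 0 called by edgeR's quasi-likelihood test, DESeq2 or limma-voom and 0 at an unadjusted p under 0.05.

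Copies of the family in the genome were counted too. The annotation holds 285 pseudogenes named after members, of which 80 passed the filter, and in the averaged comparison edgeR's quasi-likelihood test called 9 of the 80 (background 12.2%), with a median log2 fold change of 0.33 over the 80. Rpl31, Rps12 and Rpl21 have the most named copies, with 23, 22 and 15. Rpl9-ps6 and Rps12-ps3, which are typed as protein-coding, stood at 40.4 to 87.9 CPM and 105 to 195 CPM. No source used here states how reads that match several copies were assigned, so counts of a gene and its near-identical copies may be split between them.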

How the data were processed

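Spleen RNA was sequenced for 8 samples, 2 in each of 4 groups taken from the labels. The deposited table holds the authors' raw read counts per gene (unit: counts); Trim Galore, Subread and featureCounts and the builds hg38 and mm10 are named in the submitters' processing notes, while no source used here states the strand setting, the handling of multi-mapping reads or the annotation release. Gene symbols, types and lengths came from GENCODE M21 (GRCm38), which matched 52489 of 52636 identifiers.

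Genes were filtered with filterByExpr (minimum count 10, minimum total 15), scaled by TMM and fitted with edgeR 4.0.16 in R 4.3.3 (quasi-likelihood F test, 1 fit of 8 libraries, Benjamini-Hochberg adjustment over 17327 genes, threshold 0.05). CPM are edgeR's counts scaled to the TMM-adjusted library size. Errors are standard errors of the fitted log2 fold change on 2 libraries a group. The script was tested on simulated data. DESeq2 1.42.0, limma-voom (limma 3.58.1), other scalings, no filter, a replicate block and left-out libraries were the alternatives.

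Named genes were the called members (at most 6 in each direction) or else the 3 highest and 3 lowest, fixed members of known role, the paralogues, the X-linked members, and up to 4 genes of each other list by smallest p. Rpl21, Rpl3, Rpl7a, Rpl13a, Rps2, Rps3a1, Rplp1 and Rplp2 fall outside that rule in some places and were named after their values were seen. Members and lists were chosen with earlier results of these data known, and the average over genotypes, the within-family scale and the length comparison were added after seeing the data.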

Additional observations from a re-analysis of the deposited data

How the results depend on the processing

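With 2 libraries a group, only large changes can pass the test, so the absence of a call does not show that members were equal. Medians of the irradiation effect over the members turned from 0.23, 0.35 and 0.27 (wild type, mutant, average) to −0.12, −0.028 and −0.088 with library totals alone, a scaling under which the median over all genes was −0.25 in each. Members called in wild type were 2 without the filter on low counts (5.35% of all genes called), 4 with DESeq2 (2 higher, 2 lower; 6.56% of all genes) and 1 with only the 2 groups compared (6.96%). In mutant they were 2 without the filter (7.27%) and 12 with DESeq2 (10 higher, 2 lower; 11.3%). In the average they were 9 (12.2% of all genes), and 5 with library totals alone (2 higher, 3 lower, 4 shared with the 9; 9.87%) and 22 with DESeq2 (20 higher, 2 lower, including all 9; 27.1%). Upper-quartile scaling, DESeq2 size factors and TMM without the members each gave the same 9.

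When each library was left out in turn, counts of members called ran from 0 to 0 for both genotype comparisons and the interaction, from 0 to 5 for irradiation in wild type, from 0 to 8 in mutant and from 0 to 20 in the average. In wild type the 5 came without irradiated mutant replicate 1 or 2 (13.0% and 14.2% of all genes called), and in mutant 3 and 8 came without those same libraries (6.89% and 24.6%). Medians ran from −0.50 to −0.11 and from −0.33 to −0.04 for genotype before and after irradiation, from 0.05 to 0.41 and from 0.16 to 0.42 for irradiation in wild type and mutant, from −0.06 to 0.30 for the interaction and from 0.15 to 0.36 for the average. The shares of counts became those of the library that was left, 8.72% to 10.4%, 7.60% to 8.30%, 8.22% to 9.01% and 6.08% to 9.02%. Within the family, 29 to 31 members were above and 17 to 22 below at day 7 without overlap, as were 7.08% to 12.2% and 17.2% to 29.1% of all genes. The shares of all genes are not like for like, since the members set this scale. With the replicate number as a replicate block, 0 members were called in the 5 planned comparisons and 11 in the average (17.5% of all genes), among them the 9; the labels do not say that a number pairs samples.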
